A study of Arabidopsis thaliana with 24 samples.

Results

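BZIP53 and GBF6, the latter also called bZIP11, encode small basic leucine zipper (bZIP) proteins of the plant group called S1. They were taken by locus, AT3G62420 for BZIP53 and AT4G34590 for GBF6, and are 2 of the 4 group C and S1 bZIP genes that could be named among the 22810 probe sets of the array, each with 1 probe set. The platform's annotation names BZIP53. GBF6 is named only by the study's table of nitrogen-regulated genes, which was drawn from these same arrays, so its nitrogen values are given as a description of a gene already listed for nitrogen.

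Whole Col-0 seedlings grew for 14 days in long days on 0.5 mM KNO3 with 3 mM sucrose, and were then moved for 2 h to new plates. These gave either 20 mM KNO3 with 20 mM NH4NO3 (+N) or a KCl mock treatment (-N), and were left in the light (+L) or wrapped in foil (-L). The plants were either bzip1-1, which carries a T-DNA insertion in bZIP1, another group S1 gene, or WT-sib, a sibling without it, so that genotype rests on 1 insertion line and 1 sibling line. With 3 biological replicates in each of the 8 groups, there were 24 arrays. A signal from whole seedlings does not tell fewer cells of a type from less RNA per cell.

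Group S1 bZIPs are known to bind DNA mainly as heterodimers with group C bZIPs, such as bZIP9, and to act downstream of SnRK1, the kinase that plants use to sense low energy. Their best known targets are ASN1, an asparagine synthetase that stores nitrogen when carbon is short, and ProDH genes, which break down proline. The mRNAs of this group carry a conserved upstream reading frame through which sucrose represses translation, and the arrays measured mRNA and not translation. BZIP53 is also known from seed maturation, and GBF6 from sugar signalling.

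Signal is the MAS 5.0 intensity of a probe set in linear units, scaled by the authors to a mean of 500 per array after 2% of probe sets are trimmed from each end. Changes were fitted on the log2 scale with limma over 22746 probe sets, and p-values were adjusted over all of them, with a threshold of 0.05. N is +N minus -N, L is +L minus -L, and G is bzip1-1 minus WT-sib, each averaged over the other factors. Products such as N*G are differences between such differences. On 2 light arrays 1 locus went against the genotype labels: AT3G56290, chosen after its values were seen, read 1656 to 2687 on 5 WT-sib arrays and 6747 to 11651 on 5 bzip1-1 arrays, but 7861 and 1806 on the WT-sib and bzip1-1 -N+L arrays of replicate number 1. G over all arrays and G in -N+L are therefore given with and without that pair of arrays. Other results include the pair unless stated. The loss of bZIP1 itself was not checked here, since its probe set is not named in the sources used. By RT-PCR the study could not detect its transcripts in bzip1-1, whether in roots or in shoots. The leaf marker RCA read 17824 to 34876, the root marker PYK10 4039 to 14584 and the root hair marker EXPA7 44.6 to 319, and none of the 3 passed the test for N, L or G.

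BZIP53 was high in the dark and highest in the dark with nitrogen. In the dark without nitrogen its signal was 2650, 2536 and 4299 on the WT-sib arrays of replicate numbers 1, 2 and 3, and 2702, 2668 and 4355 on the bzip1-1 arrays. In the dark with nitrogen it was 4323, 5986 and 6533 in WT-sib and 4960, 4318 and 7295 in bzip1-1. The lowest of these +N values, 4318 in bzip1-1 and 4323 in WT-sib, lay just below the highest -N value of the dark, 4355 in bzip1-1, and the others lay above it. In light without nitrogen the signal was 1802, 1148 and 2099 in WT-sib and 1265, 1095 and 2105 in bzip1-1. In light with nitrogen it was 2448, 1823 and 3792 in WT-sib and 2912, 1772 and 2697 in bzip1-1. The probe set was bright throughout, with a mean log2 signal at the 95.6th percentile of all probe sets.

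Ordered by mean signal, the groups ran from bzip1-1 -N+L at 1488 ± 541 (SD, n = 3) through WT-sib -N+L at 1683 ± 487, bzip1-1 +N+L at 2460 ± 606 and WT-sib +N+L at 2688 ± 1006. The dark groups followed, with WT-sib -N-L at 3162 ± 987, bzip1-1 -N-L at 3242 ± 964, bzip1-1 +N-L at 5524 ± 1567 and WT-sib +N-L at 5614 ± 1151. Neighbours in this order overlapped in every case. Replicate number 3 gave the highest BZIP53 signal in 7 of the 8 groups and number 2 the lowest in 7 of 8. For GBF6 number 1 was the highest in 4 groups, and numbers 2 and 3 in 2 groups each.

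**Figure D1:**
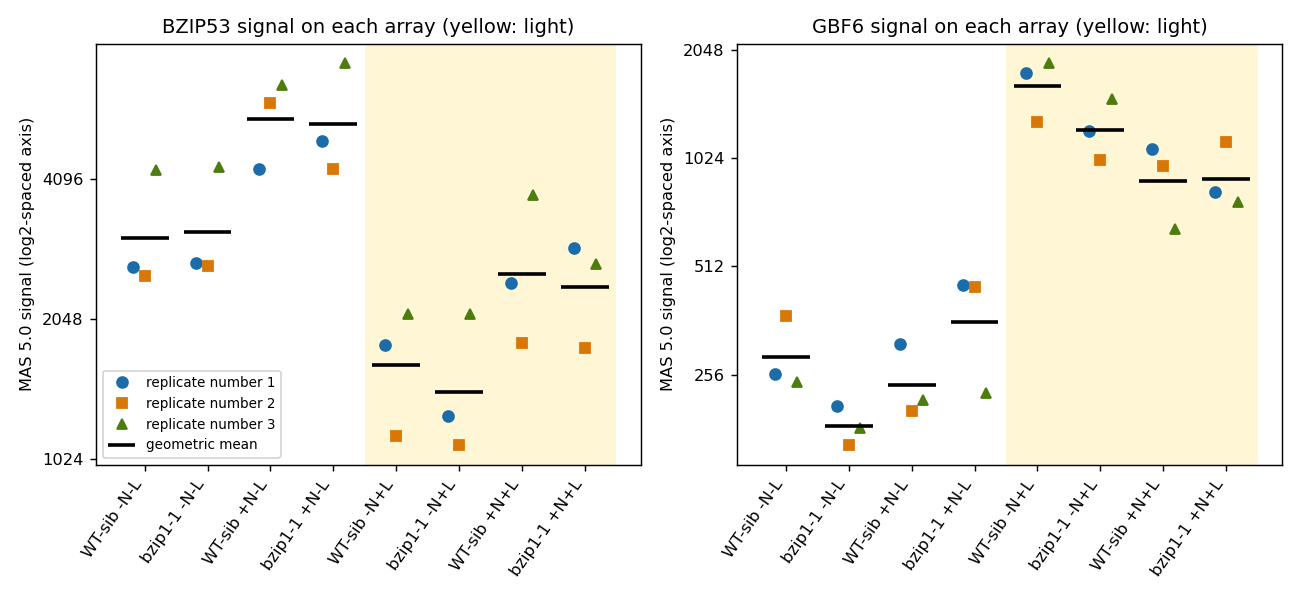
Signal of BZIP53 (left) and GBF6 (right) on each of the 24 arrays, on a log2-spaced axis, by group, with 1 symbol per replicate number and a bar at the geometric mean of 3 arrays; yellow marks light. BZIP53 runs from 1095 in light without nitrogen to 7295 in the dark with nitrogen, and all GBF6 light values lie above all of its dark values.

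Light lowered BZIP53 mRNA. Its log2 change for L was -1.08 (SE 0.16, 95% confidence interval -1.42 to -0.74, limma adjusted p = 3.51e-05), a fold change of 2.12, and 11.7% of all probe sets tested fell with light. Light was below dark in 12 of 12 comparisons of arrays with the same genotype, nitrogen and replicate number, by -0.56 to -1.71 on the log2 scale. The 12 light and 12 dark arrays overlapped over both nitrogen states, but not within either of them. Without nitrogen, light arrays read 1095 to 2105 and dark arrays 2536 to 4355, a separation downwards that 4.67% of probe sets had. With nitrogen, light arrays read 1772 to 3792 and dark arrays 4318 to 7295, as for 3.73% of probe sets.

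The fall with light was of similar size in each part of the design. It was -1.03 (SE 0.23, limma adjusted p = 0.00333) without nitrogen, a term in which 16% of probe sets passed, and -1.13 (SE 0.23, adjusted p = 0.00188) with nitrogen, where 13.3% passed. In WT-sib it was -1.01 (SE 0.23, adjusted p = 0.00443) and in bzip1-1 -1.15 (SE 0.23, adjusted p = 0.00149), in terms that 14.3% and 13.6% of probe sets passed. Of the single responses (SE 0.33 each), -1.11 in WT-sib with nitrogen (adjusted p = 0.0472) and -1.14 in bzip1-1 without it (0.0326) passed. In these terms 6.4% and 8.25% of probe sets passed, and the calls were lost in 13 and 4 of 24 fits that left out 1 array. Those of -0.91 in WT-sib without nitrogen (0.119) and -1.16 in bzip1-1 with it (0.0515) did not pass. The difference between the genotypes, L*G, was -0.14 (95% confidence interval -0.83 to 0.54, limma adjusted p = 1.00). No difference was detected, and differences within that interval remain possible.

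Nitrogen raised BZIP53 mRNA, and the size of this change was not tested against that with light. Its log2 change for N was 0.76 (SE 0.16, 95% confidence interval 0.42 to 1.10, limma adjusted p = 0.0236), a fold change of 1.69, while 0.699% of probe sets rose with nitrogen and 0.954% passed in either direction. BZIP53 is in the study's tables for nitrogen and light, though its name here does not depend on them. +N exceeded -N in 12 of 12 comparisons of arrays with the same genotype, light state and replicate number, by 0.36 to 1.24. The 4 single responses were 0.85 in WT-sib and 0.77 in bzip1-1 in the dark, and 0.65 and 0.75 in light (SE 0.33 each), and none of them passed alone. Only in WT-sib in the dark did the 3 +N and 3 -N arrays not overlap, which 3.68% of probe sets showed in that direction.

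The nitrogen call held in 16 of 24 fits that left out 1 array. It was lost, at adjusted p = 0.0503 to 0.0558, in 8 of 24 fits that left out 1 array: WT-sib -N-L number 2, +N-L number 3 or -N+L number 2, or bzip1-1 -N-L number 1 or 2, -N+L number 2, or +N+L number 1 or 3. The log2 change in these fits was 0.69 to 0.74. None of these fits held a term for replicate number, and the fit with such a term is given at the end.

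Nitrogen and light showed no detectable interaction on BZIP53. N*L was -0.11 (95% confidence interval -0.79 to 0.57, limma adjusted p = 1.00), a term in which 0.0396% of probe sets passed. The response to nitrogen was 0.81 (SE 0.23) in the dark and 0.70 (SE 0.23) in light. Genotype gave G = -0.07 (SE 0.16, 95% confidence interval -0.41 to 0.27), or -0.03 (SE 0.18) without the -N+L arrays of number 1, in a term that 0.00879% of probe sets passed. Within treatments G was 0.04 in -N-L, -0.04 in +N-L, -0.19 in -N+L and -0.09 in +N+L (SE 0.33 each), and the -N+L value was -0.03 (SE 0.41) without the arrays of number 1. N*G was 0.01 (95% confidence interval -0.67 to 0.69) and N*L*G 0.18 (95% confidence interval -1.19 to 1.54), and 0% of probe sets passed for N*G, for L*G and for N*L*G.

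GBF6 had the opposite light pattern: every light array was higher than every dark array. In the dark its signal was 257, 373 and 244 in WT-sib without nitrogen and 312, 203 and 218 with it. In bzip1-1 in the dark it was 210, 163 and 182 without nitrogen and 453, 448 and 227 with it. These dark values, 163 to 453, were all below the lowest light value of 650. In light the WT-sib arrays read 1764, 1287 and 1878 without nitrogen and 1086, 974 and 650 with it. The bzip1-1 arrays in light read 1220, 1010 and 1496 without nitrogen and 821, 1135 and 774 with it. All WT-sib light arrays with nitrogen were thus below those without it, while the bzip1-1 ranges overlapped. The mean log2 signal was at the 74th percentile of all probe sets.

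The order of the GBF6 groups by mean signal began with bzip1-1 -N-L at 185 ± 23.7 (SD, n = 3), WT-sib +N-L at 244 ± 59.3, WT-sib -N-L at 291 ± 71.1 and bzip1-1 +N-L at 376 ± 129. A gap without overlap separated these from WT-sib +N+L at 903 ± 226, bzip1-1 +N+L at 910 ± 196, bzip1-1 -N+L at 1242 ± 244 and WT-sib -N+L at 1643 ± 314. Within the dark and within the light, neighbours overlapped.

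GBF6 rose with light by 2.11 on the log2 scale (SE 0.14, 95% confidence interval 1.83 to 2.40, limma adjusted p = 6.02e-10), a fold change of 4.32. By comparison 13.2% of probe sets rose with light, 24.9% passed in either direction, and the GBF6 change was the 148th highest of 22746. All 12 light arrays lay above all 12 dark arrays, as for 1.61% of probe sets, and light exceeded dark by 0.86 to 3.04 in the 12 comparisons of arrays with the same replicate number. The rise was 2.50 (SE 0.27, limma adjusted p = 9.83e-06) in WT-sib and 2.74 (SE 0.27, adjusted p = 2.52e-06) in bzip1-1 without nitrogen, where 6.1% and 8.25% of probe sets passed. With nitrogen it was 1.88 (SE 0.27, adjusted p = 0.000242) in WT-sib and 1.32 (SE 0.27, adjusted p = 0.00755) in bzip1-1, where 6.4% and 3.71% passed. The last of these calls was lost without the bzip1-1 +N-L array of number 3 (0.99, adjusted p = 0.0575) or without the bzip1-1 +N+L array of number 2 (1.15, adjusted p = 0.0629).

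The nitrogen values of GBF6 differed in sign between conditions, and none of them passed the limma test on log2 signal. N over all arrays was -0.15 (SE 0.14, 95% confidence interval -0.44 to 0.13, limma adjusted p = 0.848), with +N above -N in 5 of 12 comparisons by replicate number. In WT-sib in light it was -0.88 (SE 0.27, adjusted p = 0.447), and the 3 +N arrays lay below the 3 -N arrays, as for 5.51% of probe sets. In bzip1-1 in the dark it was 0.97 (SE 0.27, adjusted p = 0.586), with all 3 +N arrays above the -N arrays, as for 4.91% of probe sets. The other values were -0.26 in WT-sib in the dark and -0.45 in bzip1-1 in light. In the terms for WT-sib in light and bzip1-1 in the dark, 0.114% and 0.00879% of probe sets passed. The study listed GBF6 for nitrogen by another rule, a cutoff of 0.01 on p-values from a model written for signal. On the linear scale, mean GBF6 signal was 608 over the +N arrays and 840 over the -N arrays. Whether scale and threshold account for the listing was not tested.

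**Figure D2:**
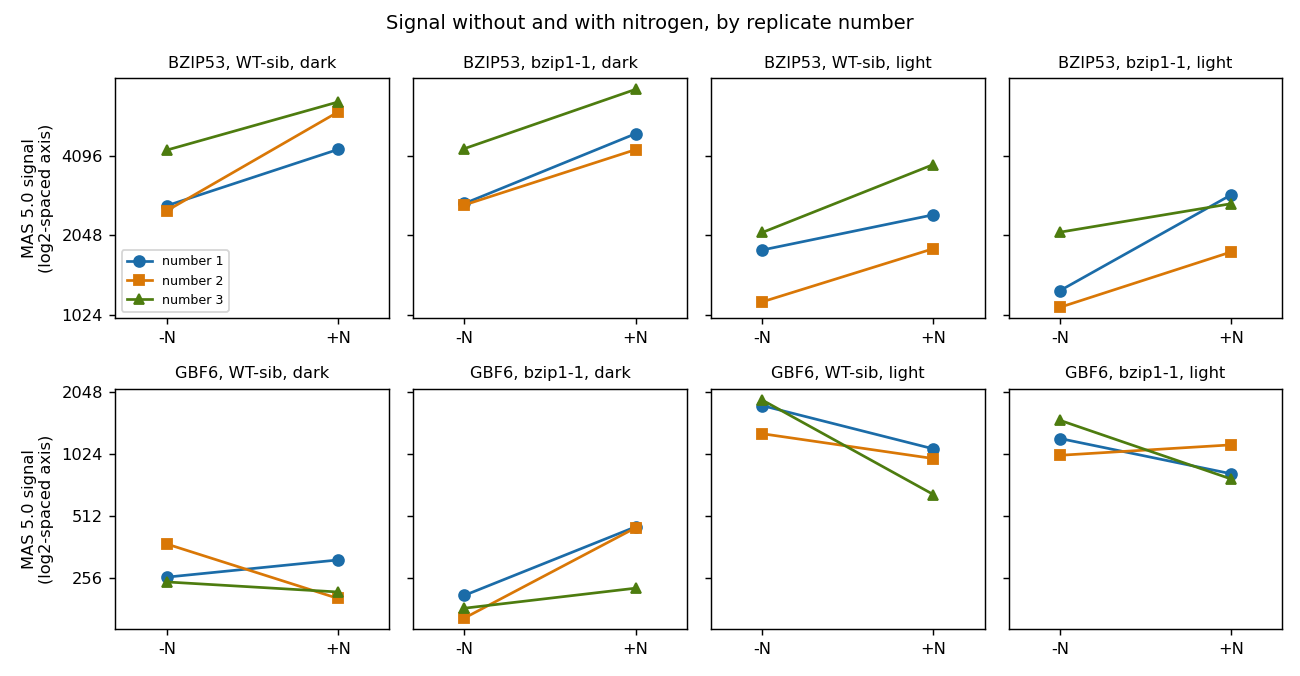
Signal of BZIP53 (top) and GBF6 (bottom) without and with nitrogen, on a log2-spaced axis, by genotype and light state; each line joins the -N and +N arrays of 1 replicate number. All 12 BZIP53 lines go up, and 5 of the 12 GBF6 lines do.

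The dependence of the GBF6 nitrogen values on light was N*L = -1.02 (SE 0.27, 95% confidence interval -1.59 to -0.45). This interval excludes 0 for GBF6 taken alone, but with all probe sets tested the limma adjusted p was 0.473. N was 0.35 (SE 0.19) in the dark and -0.66 (SE 0.19, adjusted p = 0.192) in light. Equally, L was 2.62 (SE 0.19) without nitrogen and 1.60 (SE 0.19) with it, both past the threshold.

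Genotype values of GBF6 also varied by treatment without a call. G over all arrays was -0.11 (SE 0.14, 95% confidence interval -0.40 to 0.18), or -0.09 (SE 0.15) without the -N+L arrays of number 1. In -N-L it was -0.64 (SE 0.27), and bzip1-1 read 163 to 210 against 244 to 373 in WT-sib, a separation downwards that 2.71% of probe sets had. In +N-L it was 0.58 (SE 0.27), with overlapping arrays. In light G was -0.40 (SE 0.27) without nitrogen, or -0.34 (SE 0.35) without the arrays of number 1, and 0.02 (SE 0.27) with nitrogen. N*G was 0.82 (SE 0.27, 95% confidence interval 0.25 to 1.40, limma adjusted p = 1.00), L*G -0.16 (95% confidence interval -0.73 to 0.41) and N*L*G -0.79 (95% confidence interval -1.94 to 0.35). For these terms as well 0% of probe sets passed, with 613, 390 and 408 of 22746 at an unadjusted p under 0.05.

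**Figure D3:**
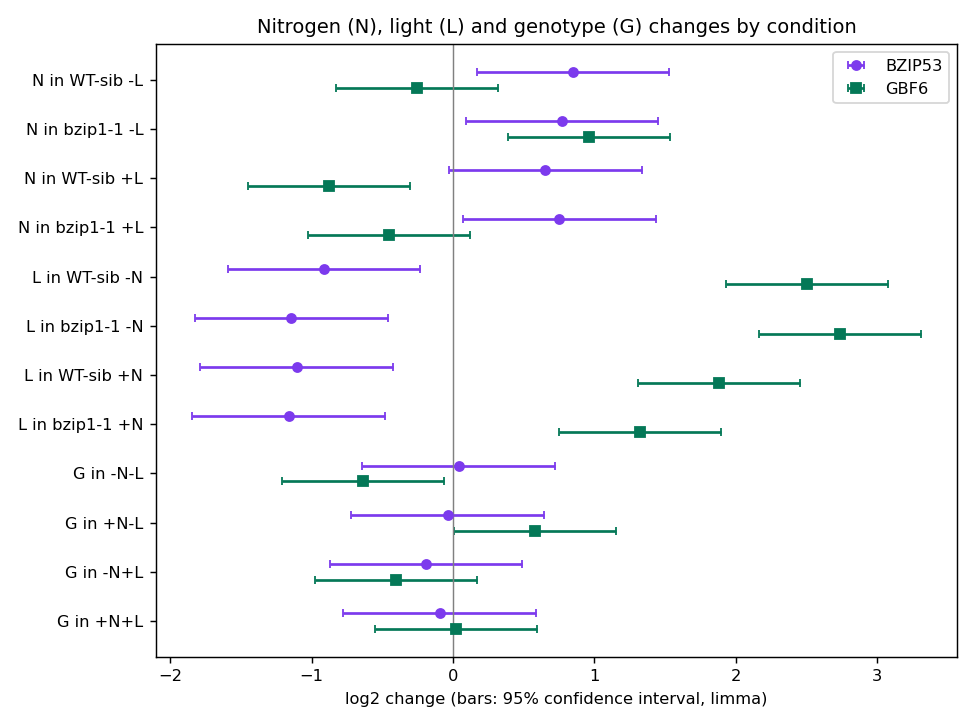
Log2 changes of BZIP53 (circles) and GBF6 (squares) with nitrogen (N), light (L) and genotype (G) in each single condition, with 95% confidence intervals from limma. The light changes of BZIP53 run from -0.91 to -1.16 and those of GBF6 from 1.32 to 2.74, and the nitrogen changes of GBF6 lie on both sides of 0.

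The unequal response of BZIP53 and GBF6 to light was tested on the difference of their log2 signals on each array. Light moved it by -3.19, so that the ratio of BZIP53 to GBF6 fell 9.14-fold. The exact two-sided permutation p was 1.25e-05, the smallest that 160000 arrangements of the light labels can give. This p follows from the lack of overlap between light and dark arrays of each gene within each nitrogen state. It therefore adds no evidence beyond those separations. By replicate number the shift was -2.80, -3.36 and -3.41. The difference was 0.91 higher with nitrogen (1.88-fold), and 0.78, 0.74 and 1.22 higher by number. Nitrogen values are given as a description with no test, because GBF6 was already listed for nitrogen on these arrays. The root mean square difference between their centred log2 signals over the 24 arrays was 1.77, against 0.75 for the spread of BZIP53 and 1.15 for that of GBF6 around their own means.

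Of the 9 group C and S1 bZIP genes listed, 4 could be named on the array, and all 4 passed for light, against 24.9% of all probe sets. They were split in direction, with 2 higher and 2 lower, and the median of -0.15 was close to the 0.00 of all probe sets. bZIP9, a group C partner of the S1 proteins, fell with light by 0.89 on the log2 scale (SE 0.10, limma adjusted p = 8.91e-07), from 1156 to 2569 on dark arrays to 741 to 1138 on light arrays, with a probe set that the array's naming marks as shared by similar transcripts. bZIP44, another S1 member, rose by 0.59 (SE 0.12, limma adjusted p = 0.00112), with 200 to 440 in the dark and 377 to 577 in light. BZIP53 and bZIP9 thus fell and GBF6 and bZIP44 rose. For nitrogen BZIP53 alone passed, with -0.26 for bZIP9 and -0.06 for bZIP44, and the list's median was -0.11 against -0.04 over all probe sets. None of the 4 passed for genotype. GBF6 and bZIP9 carry names only from the study's tables, so the counts are not independent evidence of how often such genes respond.

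Among 19 measured bZIP genes of other groups, of 53 listed and all named by the platform, 2 fell with light and 0 rose, against 11.7% and 13.2% of all probe sets. The 2 of 19 that fell are near that share. BZIP18 changed by -0.35 (SE 0.11, limma adjusted p = 0.0191) and BZIP29 by -0.29 (SE 0.10, adjusted p = 0.0278). HYH, a relative of the light regulator HY5, had 0.21 (SE 0.12, adjusted p = 0.226). The median of the 19 was -0.02 for light and -0.01 for nitrogen, and 0 passed for nitrogen or genotype.

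**Figure D4:**
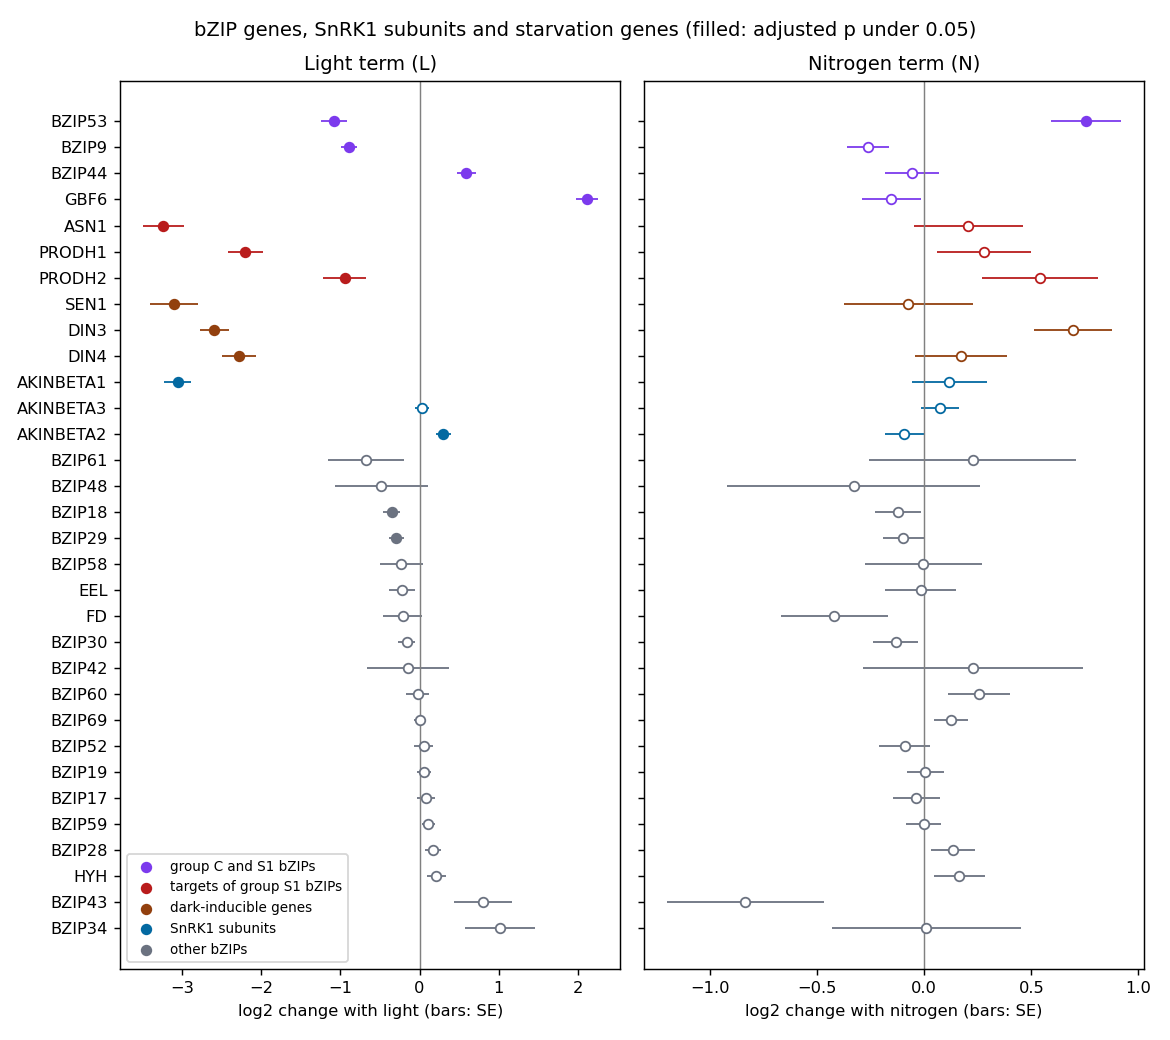
Log2 change with light (left) and with nitrogen (right) for the measured bZIP genes, SnRK1 subunits, group S1 targets and dark-inducible genes, with bars for 1 SE and filled symbols where the limma adjusted p was under 0.05. BZIP53 is the only filled symbol in the nitrogen panel.

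Some genes upstream of the group S1 bZIPs, and all 3 measured targets, also passed for light. Of 7 listed SnRK1 subunit genes 3 were measured: AKINBETA1, a regulatory beta subunit, fell by 3.05 on the log2 scale (SE 0.17, limma adjusted p = 1.14e-10), AKINBETA2 rose by 0.30 (SE 0.09, adjusted p = 0.0191), and AKINBETA3 did not pass (0.03, adjusted p = 0.877). The 3 measured targets of 5 listed all fell with light, where 11.7% of probe sets fell. ASN1 read 3763 to 27819 in the dark and 566 to 2069 in light (log2 change -3.24, SE 0.26, adjusted p = 7.29e-09). ProDH1, also called ERD5, changed by -2.20 (SE 0.22, adjusted p = 1.75e-07) and ProDH2 by -0.94 (SE 0.27, adjusted p = 0.0129). Light moved these targets in the direction of BZIP53 and against that of GBF6, and whether either acted on them here was not tested.

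Nitrogen values of the targets were 0.21 for ASN1, 0.28 for ProDH1 and 0.54 for ProDH2, and none passed, nor did any pass for genotype. The 3 measured dark-inducible genes of 7 listed, which mark carbon starvation, fell with light, as 11.7% of all probe sets did, with log2 changes of -3.10 for SEN1, -2.59 for DIN3 and -2.28 for DIN4. None of them passed for nitrogen, and DIN3 was the nearest at 0.70 (SE 0.18, limma adjusted p = 0.0866). All 3 dark-inducible genes and 2 of the 3 targets are named only by the study's tables. These hold genes called regulated on these same arrays, so being counted here and passing were not independent. The counts of both lists are therefore not evidence of how often such genes respond to light.

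The genes with patterns most like each member were sought among 8084 named probe sets whose mean log2 signal was past the 40th percentile, by the root mean square difference of centred log2 signal over 24 arrays. For BZIP53 they were AT4G15260 at 0.34, AT1G32120 at 0.37, AT4G14500 at 0.37 and AT1G24440 at 0.37, against a median of 0.83 over the candidates. AT4G15260 had L of -1.02 and N of 0.47. For GBF6 they were AT5G47060 at 0.39, GT72B1, a glucosyltransferase, at 0.39, AT2G46420 at 0.40 and AGP15, an arabinogalactan protein of the cell wall, at 0.40, against a median of 1.20. Their L ran from 1.86 for AT2G46420 to 2.41 for GT72B1. BZIP53 and GBF6 were not near each other by this measure, at 1.77.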

How the data were processed

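Signal intensity values of 24 ATH1 arrays were deposited by the authors as MAS 5.0 output on a linear scale for 22810 probe sets, 1 column per replicate, with no detection calls. Precision is limited by the number of arrays, 3 in each group. Here 64 control probe sets were set aside, and log2 signal without an offset was modelled by 8 group means in limma 3.58.1 (R 4.3.3), letting the prior variance follow the mean signal. P-values are two-sided with Benjamini-Hochberg adjustment within each contrast. The fit was tested on simulated data. Exact permutation tests and figures used Python 3.11.15 with numpy 2.4.6 and matplotlib 3.10.9. The members and gene lists were chosen with earlier results of these data known. Named genes are both members, the measured members of the lists, and the 4 nearest patterns of each member. The platform's table named 13436 probe sets with 1 locus and 876 more came from the study's tables. The contrasts of N*G within a light state were added after seeing the data. Alternatives were a replicate block, plain ANOVA on linear or log2 signal, quantile or common-median scaling, an offset of 32, no dim probe sets, no trend, the arrays of 1 genotype, and arrays left out.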

Additional observations from a re-analysis of the deposited data

Results flagged for a closer look

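GBF6 was lower in bzip1-1 than in WT-sib in the dark without nitrogen, with a log2 difference of -0.64, and higher in the dark with nitrogen, with 0.58. In the 3 comparisons by replicate number every difference was negative without nitrogen (-1.20 to -0.29) and positive with it (0.06 to 1.14). This pattern is given because it was the only one found when many pairs of contrasts were scanned for such opposite signs in both genes. With so few arrays such a scan can turn up a pattern by chance, and its share over all probe sets was not computed. The difference between these values, N*G in the dark, was 1.22 (SE 0.39, 95% confidence interval 0.41 to 2.03), but the limma adjusted p over 22746 probe sets was 1.00 and 0% of probe sets passed. This contrast was added after the values were seen, and GBF6 signal in the dark was low, at 163 to 453.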

How the results depend on the processing

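BZIP53 L, GBF6 L and the light test of the BZIP53 to GBF6 ratio kept their direction and call under each alternative that gave a test. BZIP53 N kept its direction throughout but lost its call under plain ANOVA on linear signal (1678 signal units, adjusted p = 0.0677) and on log2 signal (0.76, adjusted p = 0.0559), and with the 12 WT-sib arrays (0.75) or the 12 bzip1-1 arrays (0.76) alone, where fewer samples were fitted. With each array left out in turn it ran from 0.69 to 0.83. The 8 losses are listed above, and the cause of the others was not tested. Plain ANOVA on linear signal also gave no call for BZIP53 L without nitrogen (-1616 signal units, adjusted p = 0.0647). Nor did it for GBF6 L in bzip1-1 with nitrogen (534 signal units, adjusted p = 0.0804). GBF6 N in light, by contrast, passed under it (-536 signal units, adjusted p = 0.0302). Plain ANOVA on log2 signal gave no call for BZIP53 L in WT-sib with nitrogen (adjusted p = 0.0805) or bzip1-1 without it (0.0590). Without the trend limma also lost both (adjusted p = 0.0733 and 0.0534). Quantile normalization lost the WT-sib call (0.0609) and gave a call for BZIP53 L in bzip1-1 with nitrogen (0.0352).

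Some values that had no call changed sign. BZIP53 N*G was -102 signal units under plain ANOVA on linear signal, -0.031 with a common median and -0.070 without the -N+L arrays of number 1, and -0.11 to 0.15 with each array left out. BZIP53 N*G in light was -33.2 signal units and -0.062 under the first and last of these, and N*G in the dark 0.028 with quantile normalization, under which G in +N-L was 0.085. GBF6 N was 0.26 with the 12 bzip1-1 arrays alone, and plain ANOVA on linear signal gave 170 signal units for GBF6 N*L*G and -70.2 for GBF6 N in bzip1-1. With each array left out, BZIP53 N*L ran from -0.25 to 0.032, N*L*G from -0.072 to 0.46, G from -0.19 to 0.28 in -N-L, -0.26 to 0.12 in +N-L, -0.47 to 0.00051 in -N+L and -0.34 to 0.19 in +N+L, and N*G from -0.32 to 0.15 in the dark and -0.15 to 0.38 in light. GBF6 G in +N+L ran from -0.20 to 0.17.

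Within 1 replicate number, with no test, the values farthest from those over all arrays were, for BZIP53, N 0.64 (number 3), L -1.36 (2), G -0.0083 (1), N*L -0.29 (2), N*G 0.47 (1), L*G 0.14 (2) and N*L*G -0.64 (3). For GBF6 they were N -0.58 (3), L 2.33 (3), G -0.046 (2), N*L -0.41 (2), N*G 1.46 (2), L*G -0.59 (1) and N*L*G -1.77 (2). Of the list counts, the group C and S1 count for nitrogen was 0 under both plain ANOVAs, the SnRK1 count for light was 1 with a common median, and the dark-inducible count for nitrogen was 1 with the replicate block.

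The replicates were independent experiments per the study, whose results describe both genotypes under the combined treatments in these experiments. Neither its text nor the labels say that arrays of different groups with the same number share an experiment. Deviations of same-numbered arrays from their group means correlated at a median of 0.245 (-0.0722 to 0.415, 65 of 84 pairs over 0.1). For differently numbered arrays the median was -0.0775 (-0.385 to 0.203, 3 of 168 pairs over 0.1). With dim probe sets dropped, same-numbered arrays had a median of 0.498 (-0.23 to 0.713, 76 of 84 pairs over 0.1). Of the 24 arrays, 23 correlated best with their own number. The replicate block lowered the SE of N from 0.16 to 0.09 for BZIP53 and from 0.14 to 0.13 for GBF6. With the replicate block BZIP53 N had an adjusted p of 4.27e-05, and N passed in each genotype (0.00544 and 0.00381), in the dark (0.00472) and in light (0.00426). L then also passed in WT-sib -N (0.00178) and bzip1-1 +N (0.000289), and GBF6 N*L stayed at 0.169 and N*G at 0.798. Exchange of light labels within numbers gave p = 0.000488 for the ratio, the smallest it can give (exact permutation). That value too follows from the single direction of the 12 light comparisons given for each gene.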
